A study of Mus musculus with 19 samples.

Results

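The genes of the mitochondrial ribosome were followed across 19 RNA sequencing libraries of mouse heart. They were taken as every gene of the count table whose symbol begins with Mrps or Mrpl and a number, with pseudogenes left out, which gave 78 of 25239 genes. By the place of the protein in the ribosome, 26 encode the small subunit and 51 the large subunit. Mrps30 and Mrps18a carry a small subunit symbol but encode large subunit proteins. Mrps36 encodes a protein now placed in the 2-oxoglutarate dehydrogenase complex and was counted in neither subunit.

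The study asked what the DNA helicase gene Mcm8 does for blood vessels in a Kawasaki disease model, in which LCWE, a cell wall preparation of Lactobacillus casei, induces vasculitis. The libraries came from 4 groups, with 5 of wild-type mice given PBS, 6 of wild-type mice given LCWE, 3 of Mcm8 knockout (Mcm8-/-) mice given PBS and 5 of knockout mice given LCWE. RNA came from heart tissue and was preamplified with a whole transcriptome kit before the libraries were made. The labels name no strain, age, sex, dose or time after injection. They do not say that each library is a separate animal either, so the spread behind each p-value may be partly technical.

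Mitochondrial ribosomes translate the few respiratory chain proteins that mitochondrial DNA encodes. All of their proteins are encoded in the nucleus, made in the cytosol and imported. The small subunit binds the messenger RNA and decodes it, and the large subunit forms the peptide bond and holds the exit tunnel at the inner membrane. Some of these proteins have bacterial counterparts and others were added in the mitochondrial lineage. Heart muscle is rich in mitochondria, and inherited defects of several of these genes, such as MRPL3, MRPS14 and MRPS22, cause cardiomyopathy in people.

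Total counts ranged from 11853233 to 16145911 per library, and all 78 genes passed the filter on low counts, which kept 14301 genes. The members held 168 to 7692 counts per library, with a median of 755. As a check of the labels, Mcm8 lay at 0.130 to 0.910 CPM (a gene's counts scaled to a common library size, with composition corrected by TMM) in the knockout libraries and at 2.60 to 5.19 CPM in the wild-type libraries (edgeR adjusted p = 0.0316 under PBS and 5.12e-05 under LCWE). Cardiomyocyte markers were all present, with summed levels from 89487 to 133787 CPM, and no marker of that list was at 0 in any library. Xist lay under 5 CPM in 0 of 5 wild-type PBS, 1 of 6 wild-type LCWE, 1 of 3 knockout PBS and 4 of 5 knockout LCWE libraries. The genotype groups were therefore unbalanced in it, and so were the treatment groups within the knockout. The sample labels carry numbers whose meaning is not given, and 11 of the 19 libraries are numbered from 100 to under 200. Wild-type LCWE replicates 2 and 3 stood apart from the other libraries in the members, and the member counts and medians of the wild-type LCWE group are also given without them.

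The members lay on 17 chromosomes, with 11 on chromosome 11. Of the 78, 18 (23.1%) had a protein-coding gene on the opposite strand that started up to 1000 bases upstream and pointed away. This held for 6.96% of 20451 coding genes in the table. Starts inside the neighbour were not counted, such as those of Mrps11 and Mrpl46 on opposite strands of chromosome 7, at 78783119 and 78783531. Mrps34, on chromosome 17 from 24895116 to 24897502 in GRCm38, starts 29 bases from Eme2, and Mrpl10 starts 153 bases from Lrrc46. The exons of 22 members overlapped an exon on the opposite strand. The sources used here do not say whether the counting used strand, so their reads may include those of the neighbour. Mrpl33, Mrpl51, Mrpl53, Mrps18c and Mrps6 (5 members) overlapped an exon of another gene on their own strand, and their counts are uncertain for that reason.

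The members were expressed well above the usual gene in these hearts. Per kilobase of exon, their median was 33.9 CPM, against 5.31 CPM over 14051 tested genes with a known length. The median was 25.9 CPM per kilobase for the small subunit and 39.1 for the large subunit, with ranges from 6.77 to 190 and from 5.30 to 429 that overlapped almost fully. On the same scale the cytosolic ribosomal protein genes had a median of 316 and the nuclear subunit genes of respiratory complexes I, III, IV and V a median of 553. The 46 members with a bacterial counterpart had a median of 38.3 and the 29 mitochondrial additions a median of 26.5.

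Mrpl42, a large subunit protein added in mitochondria, had the highest level, at 429 CPM per kilobase. Next in the large subunit were Mrpl12, at 181, which forms the mobile stalk that recruits translation factors, and Mrpl30, at 146. The highest small subunit genes were Mrps21 at 190, Mrps34 at 124 and Mrps24 at 119 CPM per kilobase. At the other end were Mrpl47 at 5.30 and Mrpl1 at 5.63 in the large subunit, and Mrps25 at 6.77 and Mrps17 at 8.46 in the small subunit. The proteins stand in equal numbers in each ribosome apart from the stalk, but the transcript levels per kilobase ran from 5.30 to 429. The annotated exon length of a gene can include long ends that heart transcripts lack, which lowers its value on this scale: the 5 lowest members had 3364 to 7605 bases of annotated exon, against a median of 1380.5 bases.

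**Figure D1:**
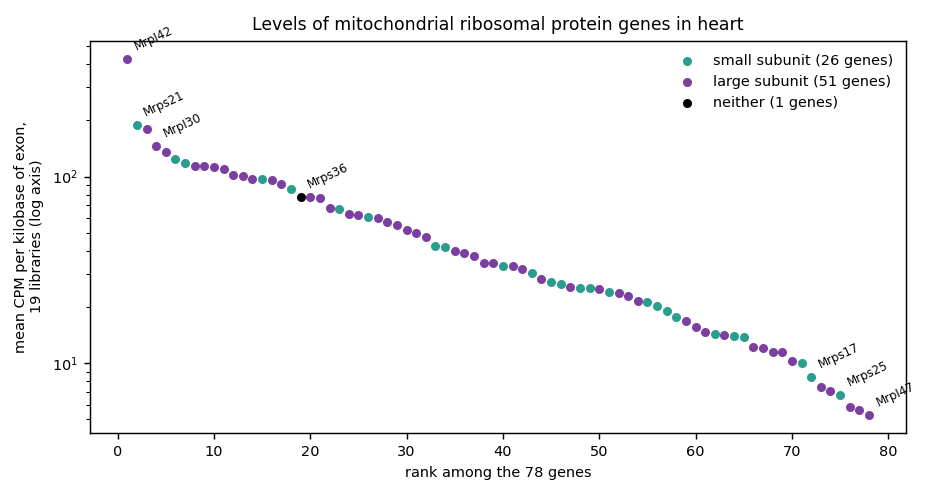
Mean level of each of the 78 genes over the 19 libraries, in CPM per kilobase of exon on a log axis, against its rank, with points coloured by subunit. Levels run from 429 for Mrpl42 to 5.30 for Mrpl47, and small and large subunit genes are mixed along the whole range.

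Promoters are shown for the 4 members with the smallest p in any comparison that have an entry in the RefSeq promoter table on GRCm38.p6, as 250 bases before the RefSeq start on the strand of the gene. Mrps34 has no entry. Capitals mark a motif found on either strand.
Mrpl39: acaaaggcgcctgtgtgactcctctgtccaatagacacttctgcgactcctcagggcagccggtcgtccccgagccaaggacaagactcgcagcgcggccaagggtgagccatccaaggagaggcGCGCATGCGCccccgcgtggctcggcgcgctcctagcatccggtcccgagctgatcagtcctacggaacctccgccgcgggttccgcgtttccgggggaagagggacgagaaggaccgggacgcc
Mrpl36: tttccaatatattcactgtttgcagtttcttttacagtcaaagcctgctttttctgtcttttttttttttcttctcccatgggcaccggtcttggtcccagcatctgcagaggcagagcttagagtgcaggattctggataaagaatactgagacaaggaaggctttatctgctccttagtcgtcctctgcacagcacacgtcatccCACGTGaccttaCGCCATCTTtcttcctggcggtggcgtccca
Mrps33: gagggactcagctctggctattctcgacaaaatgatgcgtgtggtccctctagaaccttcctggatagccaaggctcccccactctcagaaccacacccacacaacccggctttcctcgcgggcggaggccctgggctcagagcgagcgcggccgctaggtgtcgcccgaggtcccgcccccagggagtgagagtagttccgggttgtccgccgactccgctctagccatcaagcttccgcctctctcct
Mrpl28: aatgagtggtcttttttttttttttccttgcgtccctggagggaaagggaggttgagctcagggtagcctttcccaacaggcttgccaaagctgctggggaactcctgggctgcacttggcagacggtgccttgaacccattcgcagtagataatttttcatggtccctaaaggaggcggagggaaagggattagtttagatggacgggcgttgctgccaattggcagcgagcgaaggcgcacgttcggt
They lie at chr16:84735245-84735494 on the minus strand, chr13:73330759-73331008 on the plus strand, chr6:39810937-39811186 on the minus strand and chr17:26123253-26123502 on the plus strand. The Mrpl39 window holds an NRF1 motif (the letters GCGC and TGCGC with any 1 base between). The Mrpl36 window holds an E-box (CACGTG) and, on the opposite strand, the YY1 motif (AANATGGCG). In the GRCm38 annotation used for gene positions, Mrpl39 starts at 84735742 and Mrpl36 at 73328513. Both of these windows therefore lie inside the gene as annotated there, and the start differs between the annotations. The Mrps33 and Mrpl28 windows hold none of the motifs searched, but the longer window counted next, which adds 50 bases after the start, holds an ETS motif for Mrps33.

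Motifs of regulators of mitochondrial genes were counted on both strands over 300 bases, from 250 before to 50 after the start. This was done for 69 of the 78 members and for all 27025 genes of the RefSeq promoter table, whether or not these hearts express them. The ETS motif CCGGAAG, read by GABPA, was in 37.7% of member promoters and 9.93% of all promoters. NRF1 was in 18.8% against 5.19% and YY1 in 15.9% against 2.76%. The E-box was in 7.25% against 8.09% and the ERR motif TCAAGGTCA in 0% against 0.466%. At least 1 of ETS, NRF1 and YY1 was in 60.9% of member promoters, 13 of 23 in the small and 29 of 45 in the large subunit, against 15.9% of all. Member promoters were also richer in G and C, with a median of 58.3% against 52.7%, and a match describes only the letters in the window.

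The members varied somewhat less than the median tested gene between libraries of 1 group, and did so together. The SD within groups on the log2 scale had a median of 0.22 over the 78 genes, against 0.27 over all tested genes. It was 0.24 over the nuclear genes of complexes I, III, IV and V and 0.31 over cytosolic ribosomal protein genes. These SDs were not matched for level, and the members lay above the median tested gene in level per kilobase. In each library the median difference of the members from their own mean over the 19 libraries was taken, on the log2 CPM scale. It was 0.01, -0.18, -0.02, -0.01 and -0.01 in wild-type PBS replicates 1 to 5. It was 0.11, 0.32, 0.60, -0.03, 0.08 and -0.04 in wild-type LCWE replicates 1 to 6. Replicates 2 and 3 of wild-type LCWE therefore lay above every other library. The other 4 of that group lay within or just above the upper end of the PBS values. The shift of replicates 2 and 3 was not particular to the members. There the same median was 0.73 and 0.79 over cytosolic ribosomal protein genes and 0.54 and 0.69 over nuclear genes of complexes I, III, IV and V. Over other genes with under 1 kilobase of exon it was 0.50 and 0.61.

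In knockout PBS replicates 1 to 3 the median difference of the members was -0.31, -0.09 and -0.27. In knockout LCWE replicates 1 to 5 it was -0.01, 0.00, 0.13, -0.17 and -0.17. Wild-type LCWE replicate 3 was the highest of all libraries for 72 of the 78 genes and replicate 2 for 4. Knockout PBS replicate 1 was the lowest for 29 and replicate 3 for 24. By group means of log2 CPM, wild-type LCWE was highest for 75 genes and knockout PBS lowest for 67. Without wild-type LCWE replicates 2 and 3, wild-type LCWE was highest for 51 genes and knockout LCWE for 16, and knockout PBS was lowest for 66. The members together took 0.386% to 0.749% of all counts in a library.

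The small and large subunits moved side by side. The difference between the small and large subunit medians lay between -0.09 and 0.08 in every library, with an SD within groups of 0.04 on the log2 scale. The SD within groups of the median over all members was 0.17. The plot of member levels by library shows the medians of both subunits side by side in each library.

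**Figure D2:**
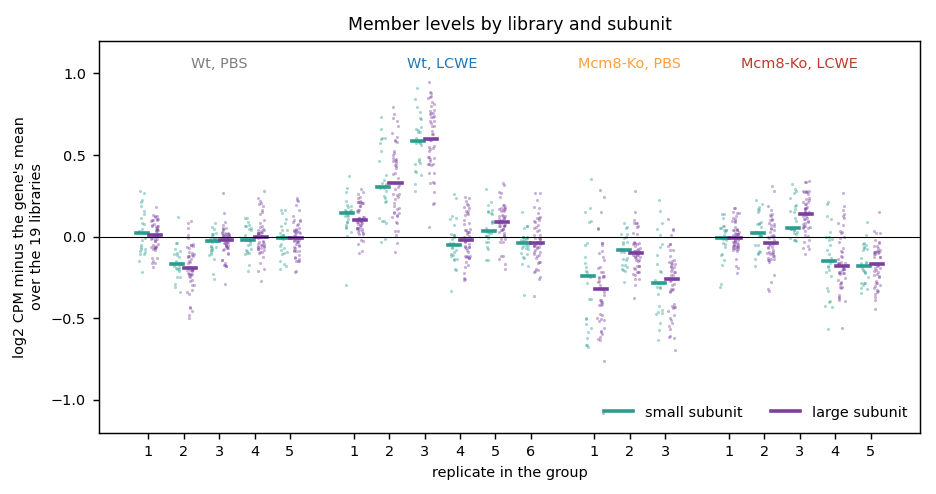
Each point is 1 gene in 1 library, as its log2 CPM minus its mean over the 19 libraries, with small subunit genes in green and large subunit genes in purple, and thick lines at their medians. Wild-type LCWE replicates 2 and 3 are raised in both subunits and knockout PBS replicates 1 and 3 are lowered in both.

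LCWE was first compared with PBS in wild-type hearts, to see how the vasculitis model bears on these genes in the normal genotype. Of the 78 members 76 had a higher mean after LCWE, but 0 passed the threshold of adjusted p = 0.05 in edgeR. The background was also 0% called, 0 of 14301 genes, with 892 genes at an unadjusted p under 0.05. DESeq2 called 1 gene, which is no member, and limma-voom 0 genes. In this and the other 4 comparisons limma-voom called 0 members. The median log2 fold change was 0.24 over the members, 0.22 in the small subunit and 0.25 in the large, against 0.01 over all genes. An unadjusted p under 0.05 with a higher level was reached by 32 members (41.0%), against 4.59% of all genes, and 51.5% of all genes had a fold change above 0. That p was also reached, with a higher level, by 60 of 80 cytosolic ribosomal protein genes and 32 of 71 nuclear genes of complexes I, III, IV and V. The member count rested on single libraries: it was 2 without wild-type LCWE replicate 3 (1.48% of all genes), 12 without replicate 2 (2.24%), 1 without both (0.795%), and 9 and 19 without wild-type PBS replicate 2 and 3 (2.64% and 3.22%).

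Mrps34 had the smallest p of the members in this comparison. This protein, added to the small subunit in mitochondria, is needed for the subunit to be stable. It lay at 107.7, 89.9, 94.9, 109 and 103 CPM in wild-type PBS replicates 1 to 5. After LCWE the 6 wild-type libraries ran from 111 to 147 CPM with a median of 119. All 6 LCWE libraries lay above all 5 PBS libraries. The log2 fold change was 0.28 ± 0.09 (SE), with an edgeR adjusted p of 0.772.

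Mrps14, in the head of the small subunit, lay at 44.7, 37.5, 40.1, 42.6 and 44.7 CPM after PBS and at 43.2 to 77.7 CPM, with a median of 48.9, after LCWE. The groups overlapped, and the 2 highest LCWE libraries were replicates 3 and 2. Its log2 fold change was 0.38 ± 0.14 (edgeR adjusted p = 0.772), and it was 0.25 without replicate 3 and 0.14 without both. Mrpl3, close to the peptidyl transferase centre, and Mrps2 were the only members with a fold change below 0, at -0.01 ± 0.09 and -0.00 ± 0.12. Mrpl3 held 75.7 to 88.5 CPM after PBS and 76.7 to 86.0 CPM after LCWE. The PBS and LCWE ranges of Mrpl3 overlapped almost fully.

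Besides Mrps34, only Mrpl10 and Mrpl16 had LCWE libraries that did not overlap the PBS libraries. These 3 are 3.85% of the members, against 0.441% of all genes that were higher with no overlap. Mrpl10, the base of the stalk, lay between 52.2 and 58.7 CPM after PBS and between 59.0 and 67.6 CPM after LCWE, a log2 difference of 0.16 ± 0.09 (edgeR adjusted p = 0.800). Without wild-type LCWE replicates 2 and 3 the member median was 0.07, with 68 of 78 above 0, and without replicate 3 alone it was 0.14.

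The libraries with high members differed in other measures too. Among 664 other genes with under 1 kilobase of exon, the median log2 fold change of LCWE in wild type was 0.28, and it was 0.14 from 1 to 2 kilobases, 0.02 from 2 to 4 and -0.08 from 4 kilobases up. The members in the same classes had medians of 0.31, 0.20, 0.25 and 0.17. Short genes had a median close to that of the short members, and members of 2 kilobases and more had higher medians than other genes of their class. When each library was corrected for its trend with exon length, the member median was 0.07 in place of 0.24, with 67 of 78 above 0 and 0 called.

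Rn45s, the ribosomal RNA precursor, lay at 2374, 1841 and 1257 CPM in wild-type LCWE replicates 1, 2 and 3, and at 437 to 740 CPM in the other 16 libraries. All 10 macrophage markers had fold changes above 0, and their summed level ran from 351 to 439 CPM after PBS and from 388 to 917 CPM after LCWE, highest in replicate 3. None of the 10 was at 0 in any library, and 0 of them were called. All 5 tested neutrophil markers were above 0 too, with sums of 2.43 to 9.27 CPM after PBS and 7.17 to 52.3 CPM after LCWE, while Ly6g was at 0 in 9 of the 19 libraries. The part of these in the member values was not tested. In whole tissue, a change in the number of cells of a type and a change in RNA per cell cannot be told apart.

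**Figure D3:**
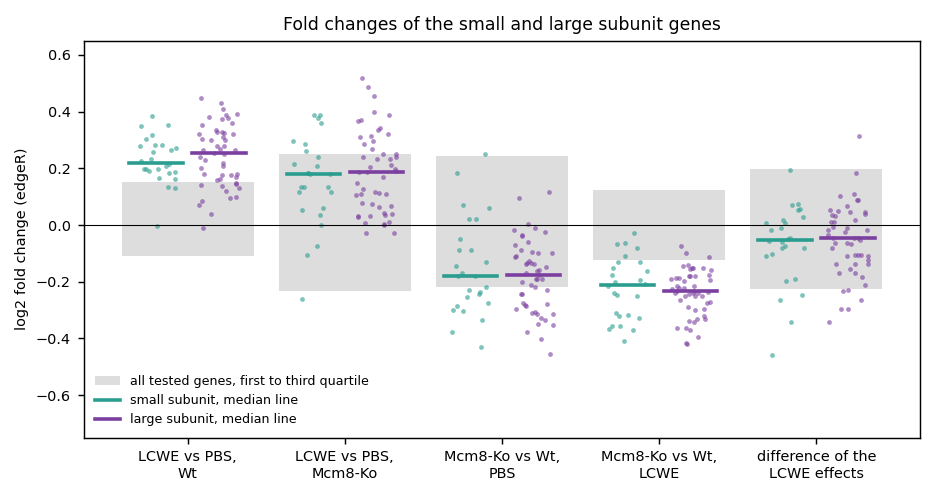
Log2 fold changes of the 26 small and 51 large subunit genes in the 5 comparisons, with lines at the subunit medians and grey boxes from the first to the third quartile of all tested genes. Both subunits lie above 0 for LCWE against PBS and below 0 for knockout against wild type, at nearly equal medians.

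In the Mcm8 knockout, LCWE was also followed by higher means for most members. The median log2 fold change was 0.18, with 0.18 in the small and 0.19 in the large subunit, and 72 of 78 were above 0, against 50.9% of all genes. No member passed in edgeR, where 2.90% of all genes were called. DESeq2 called 0 members among 1260 genes. An unadjusted p under 0.05 with a higher level was reached by 12 members (15.4%), against 10.7% of all genes. The count was 0, 26 and 3 without knockout PBS replicate 1, 2 and 3 (5.37%, 17.2% and 7.61% of all genes), and 7 and 3 without knockout LCWE replicate 2 and 3 (10.1% and 9.30%). The groups did not overlap for 8 members, all higher after LCWE (10.3%), against 4.91% of all genes. They were Mrpl11, Mrpl23, Mrpl48, Mrpl52, Mrpl58, Mrps7, Mrps15 and Mrps36.

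Mrpl46, a large subunit protein added in mitochondria, lay at 20.7, 32.5 and 24.03 CPM in the 3 knockout PBS libraries. After LCWE it lay at 38.9, 32.7, 40.8, 31.3 and 32.9 CPM in replicates 1 to 5. Knockout PBS replicate 2 lay among the LCWE libraries and the other 2 below them all. The log2 fold change was 0.45 ± 0.18 (edgeR adjusted p = 0.147), and Mrpl46 also had the widest spread of group means of the large subunit, from 25.8 to 44.4 CPM.

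Mrps27, a pentatricopeptide repeat protein of the small subunit, had the smallest p, with 33.4, 44.3 and 44.5 CPM after PBS and 51.4, 58.5, 56.9, 44.1 and 50.4 CPM after LCWE. LCWE replicate 4 reached down to the PBS values, and the log2 fold change was 0.36 ± 0.14 (edgeR adjusted p = 0.139), or 0.23 without PBS replicate 1. Mrpl52, at 0.52 ± 0.22, had the largest fold change of all members here. It lay at 38.2, 47.5 and 35.5 CPM after PBS and between 54.9 and 61.8 CPM after LCWE, with no overlap (edgeR adjusted p = 0.156).

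Mrps23 and Mrps10 went the other way in the knockout. Mrps23, also a mitochondrial addition to the small subunit, lay at 176, 126 and 161 CPM after PBS and at 133, 125, 143, 119 and 123.2 CPM after LCWE. The knockout PBS libraries 1 and 3 were above every knockout LCWE library, and library 2 was among them. The log2 fold change was -0.26 ± 0.14 (edgeR adjusted p = 0.267), or -0.16 without PBS replicate 1. Mrps10 had -0.10 ± 0.12. Without knockout PBS replicate 2, edgeR called 20.2% of all genes in either direction, a larger share than of the members. The members called were 5 of 78, all higher: Mrpl10, Mrps11, Mrps22, Mrpl46 and Mrpl49. Of these, Mrpl10 had the smallest p, at 0.39 ± 0.09 (edgeR adjusted p = 0.00850). All 10 macrophage markers lay above 0 in the knockout too, with 2 called, at sums of 189 to 490 CPM after PBS and 477 to 1443 CPM after LCWE. Of the 8 fibroblast markers 6 lay above 0, with 1 called, at sums of 937 to 1288 CPM after PBS and 1166 to 2105 CPM after LCWE. All 4 smooth muscle markers lay above 0 and all 8 endothelial markers below 0, with 0 called. The part of these cells in the member values was not tested. Xist was under 5 CPM in 1 of 3 knockout PBS and 4 of 5 knockout LCWE libraries. Treatment and Xist are therefore partly mixed here and in the interaction.

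The knockout was next compared with the wild type under PBS, which shows the genotype without the vasculitis stimulus. Most members had lower means in the knockout: 69 of 78 lay below 0, against 49.8% of all genes, with a median of -0.18 in each subunit. In edgeR 0 members passed and 0.601% of all genes did. An unadjusted p under 0.05 with a lower level was reached by 9 members (11.5%), against 7.42% of all genes. It was 1, 25 and 5 without knockout PBS replicate 1, 2 and 3 (2.28%, 15.8% and 5.81% of all genes), 2, 2 and 4 without wild-type PBS replicate 1, 4 and 5 (5.84%, 6.20% and 6.89%) and 17 without wild-type LCWE replicate 3 (8.26%). DESeq2 called 1 member, Mrpl39, among 699 genes (4.89%). The 3 knockout PBS libraries are the ones that served as the controls of the LCWE comparison in the knockout, so the results are not independent.

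Mrpl39, a large subunit protein related to threonyl-tRNA synthetase, lay at 56.02, 60.3, 54.7, 64.9 and 64.6 CPM in wild-type PBS and at 39.6, 51.8 and 44.9 CPM in knockout PBS. The 3 knockout libraries all lay below the 5 wild-type libraries. Its log2 fold change was -0.40 ± 0.12, with an adjusted p of 0.0873 in edgeR and 0.0366 in DESeq2. In all, 8 members (10.3%) were lower with no overlap, against 3.62% of all genes, namely Mrps27 in the small subunit and Mrpl19, Mrpl24, Mrpl37, Mrpl39, Mrpl48, Mrpl52 and Mrpl58 in the large.

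Mrps22, whose protein belongs to the small subunit only in mitochondria, had the widest spread of group means in that subunit. It lay at 25.1, 19.6, 19.7, 21.4 and 18.04 CPM in wild-type PBS and at 13.4, 19.4 and 13.3 CPM in knockout PBS. Knockout replicate 2 was within the wild-type range and the other 2 below it. The log2 fold change was -0.43 ± 0.18 (edgeR adjusted p = 0.205). Mrps23 had the largest value above 0, at 0.25 ± 0.14, followed by Mrps34 at 0.18 ± 0.11 (edgeR adjusted p = 0.325 and 0.348). Mrps23 had 0.15 without knockout PBS replicate 1 and 0.38 without replicate 2, and Mrps34 had 0.10 without replicate 3.

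Without knockout PBS replicate 2, edgeR called 17.9% of all genes in either direction, a larger share than of the members. The members called were 7 of 78, all lower: Mrpl10, Mrpl22, Mrpl28, Mrpl39, Mrpl46, Mrpl49 and Mrps22. The cardiomyocyte markers moved in the same direction as the members, with 10 of 13 below 0. Their summed level was 108081 to 123497 CPM in wild-type PBS and 89487 to 112488 CPM in knockout PBS, and the 2 lowest of all 19 libraries were knockout PBS replicates 3 and 1. Malat1, a nuclear RNA, lay at 985, 483 and 651 CPM in knockout PBS replicates 1 to 3 and at 457 to 634 CPM in wild-type PBS. All 10 macrophage markers and 6 of 8 fibroblast markers lay below 0 too, with 0 called. So did all 4 smooth muscle markers, with sums of 204 to 216 CPM in knockout PBS and 266 to 576 CPM in wild-type PBS that did not overlap, while 7 of 8 endothelial markers lay above 0, again with 0 called. The part of these in the member values was not tested.

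Under LCWE, all 78 members had a lower mean in the knockout than in the wild type, against 49.3% of all genes. The median log2 fold change was -0.23, with -0.21 in the small and -0.23 in the large subunit, and values ran from -0.42 to -0.03. In edgeR 0 members passed and 0.00699% of all genes did, which is 1 gene, Mcm8. DESeq2 called 8 genes and none of the members. An unadjusted p under 0.05 with a lower level was reached by 27 members (34.6%), against 3.12% of all genes. It was also reached by 37 of 71 nuclear genes of complexes I, III, IV and V and by 1 of 80 cytosolic ribosomal protein genes. The member count was 11 without wild-type LCWE replicate 3 (2.15% of all genes), 7 without both replicates 2 and 3 (4.23%), and 15 and 12 without knockout LCWE replicate 4 and 5 (3.81% and 1.71%).

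Mrpl36, a small protein of the large subunit core shared with bacteria, had the smallest p. It ran from 38.5 to 66.4 CPM, with a median of 46.4, in wild-type LCWE. In knockout LCWE replicates 1 to 5 it lay at 37.3, 41.0, 40.8, 32.1 and 31.2 CPM. The lowest wild-type library lay below the 2 highest knockout libraries, so the groups overlapped. The log2 fold change was -0.42 ± 0.13 (edgeR adjusted p = 0.800).

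Mrps33, of the small subunit, ran from 47.1 to 77.03 CPM, with a median of 55.99, in wild-type LCWE, and lay at 41.5, 46.996, 51.3, 48.9 and 43.7 CPM in knockout LCWE. The groups overlapped, and the log2 fold change was -0.37 ± 0.12 (edgeR adjusted p = 0.804). Mrpl10, Mrpl16, Mrpl28 and Mrpl49, all of the large subunit, were lower with no overlap. They make up 5.13% of the members, against 0.364% of all genes. Mrpl28 had the largest difference of all members, at -0.42, from 107.4 to 146 CPM in the wild type to between 76.8 and 98.0 CPM in the knockout.

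This difference shares the wild-type LCWE libraries with the LCWE comparison. Without wild-type LCWE replicates 2 and 3 the median was -0.08, with 63 of 78 below 0, and without replicate 3 alone it was -0.14. Without both, Mrpl36 had -0.25, Mrps33 -0.18 and Mrpl28 -0.38. With the correction for exon length it was -0.13, with 70 of 78 below 0 and 0 called. With Xist under 5 CPM as a covariate it was -0.21, with 77 below 0. Of the 13 cardiomyocyte markers 9 lay below 0 here and all 10 macrophage markers above 0, with 0 called in each list, and their part was not tested.

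**Figure D4:**
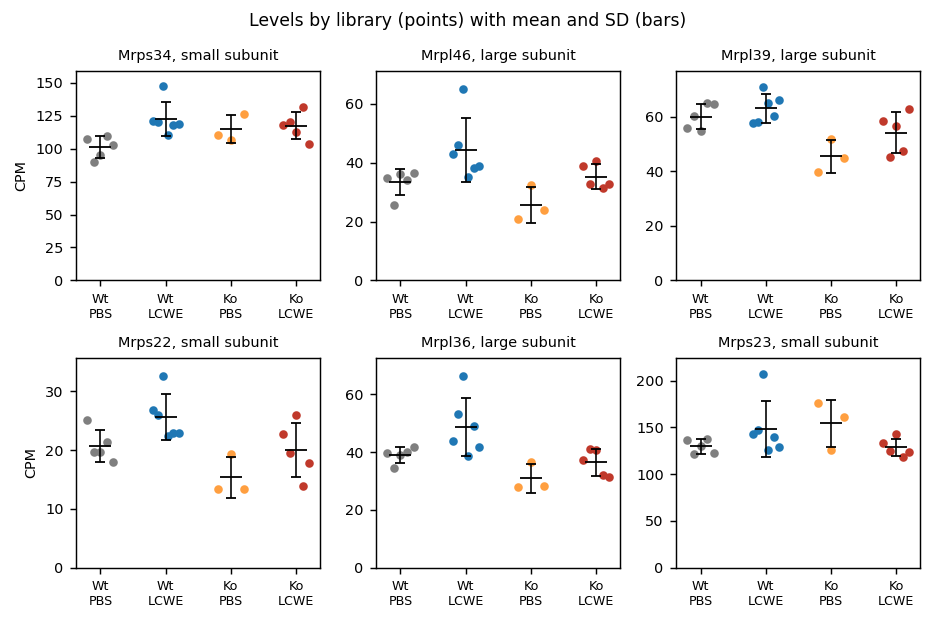
CPM of 6 members in each library, grouped by genotype and treatment, with bars for the mean and SD of the group, on axes from 0. Mrps34 is higher in all wild-type LCWE libraries than in wild-type PBS, Mrpl39 is lower in all knockout PBS libraries than in wild-type PBS, and Mrps23 is highest in 1 wild-type LCWE library and 2 knockout PBS libraries.

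The LCWE effect was then compared between genotypes as an interaction. No member passed in edgeR, where 0% of all genes were called and 1145 genes had an unadjusted p under 0.05. DESeq2 called 5 genes and none of the members. The median difference of the log2 effects, knockout minus wild type, was -0.05, with 51 of 78 below 0, against 52.9% of all genes. Mrps23 alone had an unadjusted p under 0.05, 1.28% of the members, against 4.98% of all genes that did so with a lower value. Its level was higher after LCWE in the wild type, 148 ± 29.9 CPM against 130 ± 7.60 CPM (SD, n = 6 and 5), and lower in the knockout, 129 ± 9.40 CPM against 154 ± 25.5 CPM (SD, n = 5 and 3). The difference of the log2 effects was -0.46 ± 0.18 (edgeR adjusted p = 0.594). It was -0.34 without wild-type LCWE replicate 3, where Mrps23 lay at 207 CPM, and -0.58 without knockout PBS replicate 2. Next came Mrps34, at -0.25 ± 0.14, and on the other side Mrpl19, at 0.31 ± 0.26, and Mrpl39, at 0.18 ± 0.15. Without knockout PBS replicate 1 Mrpl19 had 0.08 and Mrpl39 0.10, without replicate 2 Mrpl39 had 0.29, and without replicate 3 Mrps34 had -0.16. The sign of the member median rested on single libraries and on the scaling. It turned to 0.05, with 47 of 78 above 0, without knockout PBS replicate 2, and to 0.04, with 53 above 0, without wild-type LCWE replicate 3. Scaled by library totals alone it was 0.07, with 56 above 0.

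Among the 11 libraries numbered 100 to under 200, members passed the threshold. LCWE raised 32 of the 78 members (41.0%) in the wild type, against 5.21% of 14747 genes called higher, with 10 of 26 in the small and 21 of 51 in the large subunit and Mrps36. Mrpl52, with the smallest p, lay at 48.5, 48.5, 49.0 and 52.1 CPM in wild-type PBS replicates 1 to 4 and at 57.7, 94.1 and 105 CPM in wild-type LCWE replicates 1 to 3. The groups did not overlap in this range. Over all libraries they did, with wild-type LCWE replicates 4, 5 and 6 at 46.4, 55.7 and 46.7 CPM and wild-type PBS replicate 5 at 52.3 CPM. Within the range the log2 fold change was 0.75 ± 0.15. Mrps24 rose by 0.63 ± 0.13 and Mrpl53 by 0.61 ± 0.13 on the same scale. The genes named for this range were chosen after their values were seen. In this range the median log2 fold change for LCWE in the wild type was 0.36 over the members and -0.02 over all genes. It was 0.75 over cytosolic ribosomal protein genes and 0.53 over nuclear genes of complexes I, III, IV and V, so the rise was not particular to the members. The wild-type LCWE libraries of this range were the ones with Rn45s at 2374, 1841 and 1257 CPM, and its part was not tested.

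The count depended on single libraries. The share of all genes called in each of these fits is not given here. The counts that follow therefore do not show how the members compare with all genes. It was 8, 0, 14 and 10 without wild-type PBS replicate 1, 2, 3 and 4. Without wild-type LCWE replicate 1, 2 and 3 it was 53, 0 and 0, and without knockout LCWE replicate 1 it was 20. With the correction for exon length it was 3, Mrpl48, Mrps14 and Mrps17. From 200 up, the member median was -0.03 in the 1 wild-type LCWE library and -0.01 in the 1 wild-type PBS library, and -0.27 in the 1 knockout PBS library, as differences from the mean over the 19 libraries.

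In the same range 18 members rose with LCWE in the knockout, against 12.9% of all genes, and 14 fell in the knockout under PBS, against 13.4%. Both rest on 1 knockout PBS library, replicate 1, which the fit assumes to vary like the other groups. For the left-out libraries and the length correction below, the share of all genes called is not given, so those counts do not compare members with all genes. The counts were 6 to 28 and 4 to 26 when any other 1 library was left out, lowest without knockout LCWE replicate 3 and wild-type PBS replicate 1, and highest without wild-type LCWE replicate 1. With the correction for exon length, 12 were called higher and 2 lower in the first and 5 lower and 3 higher in the second. Mrpl19 had the smallest p in both, at 13.4 CPM in that library and 31.9, 34.3 and 35.7 CPM in the 3 knockout LCWE libraries. In the other knockout PBS libraries Mrpl19 lay at 25.03 and 24.9 CPM. In this range Xist lay under 5 CPM in all knockout libraries and, in the wild type, only in LCWE replicate 1. Without that replicate, and under PBS, genotype and Xist cannot be told apart here. Under LCWE 0 members were called between genotypes in this range, with 0% of all genes called, but without wild-type LCWE replicate 1 there were 32 lower, with 8.66% of all genes called. In the interaction 4 were called, Mrpl19 and Mrps2 higher and Mrpl20 and Mrps17 lower, against 15.1%. Of the libraries numbered under 100, the 2 of wild-type LCWE had member medians of 0.08 and -0.04 the 2 of knockout LCWE -0.17 and -0.17 and the 1 of knockout PBS -0.09, so both knockout LCWE libraries lay below the knockout PBS library there.

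Split by evolutionary origin, the members had close medians. For LCWE in the wild type the median log2 fold change was 0.26 over the 46 members with bacterial counterparts and 0.23 over the 29 mitochondrial additions. In the knockout it was 0.18 in each. For the knockout under PBS it was -0.17 and -0.24, and under LCWE -0.24 and -0.22. The 3 paralogues Mrps18a, Mrps18b and Mrps18c, whose proteins sit in different places of the ribosome, had 0.17 ± 0.12, 0.19 ± 0.11 and 0.28 ± 0.16 for LCWE in the wild type. Their levels per kilobase were 67.9, 30.6 and 24.1 CPM. Mrps30 showed little difference in any comparison, with values from -0.15 to 0.04, and Mrps36 had 0.32 ± 0.13 for LCWE in the wild type and 0.34 ± 0.16 in the knockout. Mrpl58, which frees peptides from stalled ribosomes, had 0.28 ± 0.13 and 0.39 ± 0.16, and Mrpl12 had 0.39 ± 0.15 and 0.27 ± 0.19.

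Other genes of mitochondrial translation lay near the members or closer to 0. Mitoribosomal proteins with other symbols (Dap3, Ptcd3, Chchd1, Aurkaip1 and Gadd45gip1; Ict1 is an older symbol of Mrpl58) had a median of 0.19 for LCWE in the wild type, with 5 of 5 above 0 and 0 called. Chchd1 was highest of them, at 0.48 ± 0.17. Dap3, the GTP-binding protein of the small subunit, had a difference of the LCWE effects of -0.33 ± 0.12 (edgeR adjusted p = 0.587), with 95.4 ± 6.58 and 101 ± 6.70 CPM in the wild type and 102 ± 8.89 and 85.8 ± 5.81 CPM in the knockout after PBS and LCWE (SD, n = 5, 6, 3 and 5). Assembly and rRNA modification factors had a median of 0.08 with 23 of 27 above 0, translation factors 0.10 with 11 of 15, and mitochondrial aminoacyl-tRNA synthetases 0.02 with 12 of 17, and 0 of these were called. Among them Malsu1, which keeps the subunits apart during assembly, had 0.35 ± 0.15, the deformylase Pdf 0.20 ± 0.09 and the leucyl-tRNA synthetase Lars2 0.53 ± 0.19.

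For LCWE in the knockout the medians were 0.09 for assembly, 0.17 for translation factors and 0.16 for synthetases, with 0 called. The smallest p in each belonged to the rRNA methyltransferase Mrm2, at 0.52 ± 0.22 (edgeR adjusted p = 0.163), to the ribosome recycling factor Mrrf, at 0.39 ± 0.12 (0.0720), and to the seryl-tRNA synthetase Sars2, at 0.57 ± 0.19 (0.0804). For the knockout under LCWE the medians were -0.15, -0.13 and -0.13, again with 0 called. There the GTPase Mtg1 had -0.42 ± 0.13 and the phenylalanyl-tRNA synthetase Fars2 -0.27 ± 0.09 (edgeR adjusted p = 0.804 for each).

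Under PBS the same lists lay lower in the knockout, with medians of -0.18 for assembly, -0.19 for translation factors and -0.18 for synthetases, and 0 called. Mrrf, which frees ribosomes after termination, lay at 49.7 ± 3.71 CPM in wild-type and 36.6 ± 6.32 CPM in knockout PBS libraries (SD, n = 5 and 3), with a log2 fold change of -0.44 ± 0.12 (edgeR adjusted p = 0.0752). Mtg1 had -0.42 ± 0.16 and the alanyl-tRNA synthetase Aars2 -0.45 ± 0.17 (edgeR adjusted p = 0.166 and 0.150). Genes of mitochondrial DNA transcription and replication had medians of 0.03 for LCWE in the wild type and -0.07 for the knockout under PBS, with 0 called. Tfb2m, a mitochondrial transcription factor, had 0.42 ± 0.14 for the knockout under PBS (edgeR adjusted p = 0.122).

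Nuclear regulators of mitochondrial genes had medians of -0.02 and -0.22 for LCWE against PBS in wild-type and knockout hearts. For the knockout against the wild type their medians were 0.22 under PBS and 0.00 under LCWE, and in the interaction -0.16. For LCWE in knockout hearts and for the knockout under PBS these had the opposite sign to the member medians of 0.18 and -0.18. Of 12, the 1 called was Yy1, a zinc finger factor that binds many promoters of such genes. Yy1 was higher in the knockout under PBS, at 83.0 ± 18.9 CPM against 57.1 ± 3.96 CPM in the wild type (SD, n = 3 and 5), a log2 fold change of 0.54 ± 0.12 (edgeR adjusted p = 0.0468), and lower in the knockout after LCWE than after PBS, at -0.57 ± 0.12 (edgeR adjusted p = 0.0293). Both Yy1 comparisons use the same 3 knockout PBS libraries, so they are not independent. Values of Yy1 with single libraries left out are not given here. With Xist under 5 CPM as a covariate edgeR called 0 genes for the knockout under PBS, Yy1 included.

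For comparison, cytosolic ribosomal protein genes had medians of 0.43 for LCWE in the wild type, 0.25 in the knockout, 0.00 for the knockout under PBS and -0.16 under LCWE, with 0 of 80 called in each. Nuclear genes of complexes I, III, IV and V had 0.30, 0.11, -0.10 and -0.30, with 0 of 71 called. The members had 0.24, 0.18, -0.18 and -0.23. Complex II, whose subunits are all nuclear, had 0.15 for LCWE in the wild type and -0.19 for the knockout under LCWE over 4 genes.

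**Figure D5:**
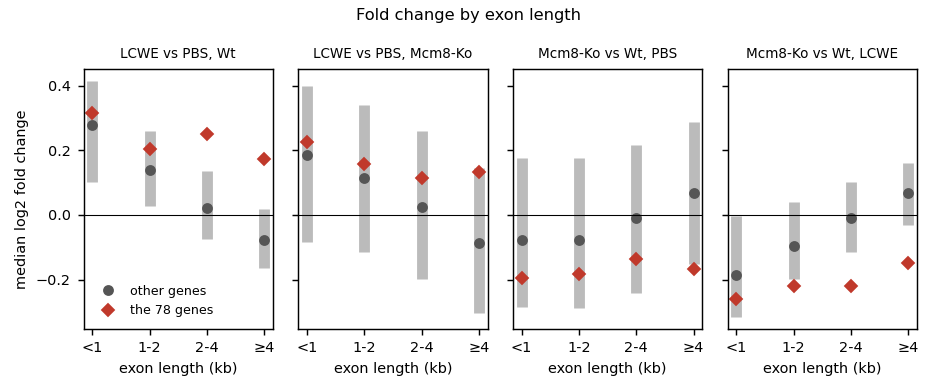
Median log2 fold change of the members (diamonds) and of all other tested genes (circles, with grey bars from the first to the third quartile) by exon length, in 4 comparisons. For LCWE in the wild type the other genes run from 0.28 under 1 kilobase to -0.08 from 4 kilobases up, and the members from 0.31 to 0.17.

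The trend with length appeared in the other comparisons too. For LCWE in the knockout, other genes under 1 kilobase had a median of 0.19 and those of 4 kilobases and more -0.09, and members 0.22 and 0.13. For the knockout under LCWE the other genes had -0.19 and 0.07, and the members -0.26 and -0.15. With the correction for exon length the member median was 0.08 for LCWE in the knockout, with 48 of 78 above 0, and -0.09 for the knockout under PBS, with 61 below 0. In both, 0 members were called.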

How the data were processed

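Whole-transcriptome amplified RNA of mouse heart was sequenced as 19 libraries. The authors deposited 1 table of counts per gene, whole numbers that had not been normalized. Per the submitters' processing notes, STAR 2.7.8a, limma 3.36.160 and the build GRCm38 were used, with no role named. The counting tool, its strand setting and its annotation are not known from the sources used here, and the table held 0 columns of other samples.

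Genes were tested with edgeR 4.0.16 in R 4.3.3 by the robust quasi-likelihood test, in 1 model of 4 groups with TMM scaling and no covariate, after filterByExpr (minimum count 10, minimum total 15). P-values were Benjamini-Hochberg adjusted over all tested genes, with a threshold of 0.05. SE is the standard error of the log2 fold change from that fit. Levels between genes used CPM per kilobase of the union of exons in the GRCm38 annotation. The alternatives were DESeq2 1.42.0, limma-voom 3.58.1, other scalings and filters, only the groups compared, covariates, label ranges and leaving out each library. The offset for exon length, the Xist covariate, leaving out wild-type LCWE replicates 2 and 3 together, the checks within the label range and the left-out libraries for unadjusted p-values were added after seeing the data. Procedures were tested on simulated data.

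Named were members past the threshold, the 2 with the smallest p in each direction and comparison, the 3 highest and 2 lowest per kilobase and the 2 with the widest group means in each subunit, 8 fixed members, and from each other list the gene with the smallest p. The members and lists were chosen with earlier results of these data known. Mrpl16, Mrpl49, Mrpl52 for LCWE in the knockout, Mrpl28 and other members named by overlap or left-out libraries were named after their values were seen.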

Additional observations from a re-analysis of the deposited data

Results flagged for a closer look

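In 9 of 75 groups of 5 or 6 libraries, 1 library lay apart from the others. Its gap was large for the range of its group. Chance flags about 1 in 20 groups if they are independent. The 75 groups reuse the same libraries for members that move together, so the 9 cannot be set against that rate. Wild-type LCWE replicate 3 was the highest library of its group for Mrps23, at a log2 CPM of 7.69 against 7.201 in the next library, for Mrps27, at 6.21 against 5.81, and for Mrps34, at 7.204 against 6.92. Mrps27 was also high in wild-type PBS replicate 1, at 5.87 against 5.59. Mrps18c was high in knockout LCWE replicate 3, at 4.72 against 4.43.

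Wild-type PBS replicate 2 lay low in Mrpl46, at 4.69 against 5.10 in the next library. It was also low in the median difference of the 78 members from their own means, at -0.18 against -0.02, in the small subunit, at -0.17 against -0.03, and in the large subunit, at -0.19 against -0.02. These 3 medians rest on the same libraries and are not independent. No cause was tested.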

How the results depend on the processing

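Of 463 alternatives to the counts and medians, 451 left the count within 1.5 times or moved the median by less than its SD within groups. That SD was 0.17 for the member median and 0.042 for the small minus large difference. The measure is loose, because a median can change sign within it and a count of 0 in both fits is taken as unchanged. The sign of the member median changed in 3 alternatives, all in the interaction, where it ran from -0.092 to 0.049 without 1 library, and that of the small minus large difference in 27. Of 492 alternatives for 18 named results 471 kept their direction and their side of the threshold, while 10 passed the threshold and 11 changed sign. DESeq2 called 1 member for the knockout under PBS. Among label numbers 100 to under 200 edgeR called 32 members for LCWE in wild-type hearts, 18 for LCWE in knockout hearts, 14 for the knockout under PBS and 4 in the interaction. There the small minus large subunit median was -0.11 for LCWE in the knockout, 0.12 for the knockout under PBS and -0.058 in the interaction. The member median for LCWE in the wild type was 0.071 with the offset for exon length and 0.065 without wild-type LCWE replicates 2 and 3. Leaving out 1 library gave 0 to 5 members called for LCWE in the knockout and 0 to 7 for the knockout under PBS. Both were highest without knockout PBS replicate 2, where 20.2% and 17.9% of all genes were called. For LCWE in the wild type Mrpl3 changed sign, to 0.0016 with the label range as covariate, 0.061 with the length offset, 0.0022 without both libraries and -0.032 to 0.028 without 1 library. Mrps2 changed to 0.046 with the covariate and lay at -0.055 to 0.045 without 1 library. The cause was not tested. Where 1 knockout PBS library was left, it was assumed to vary like the other groups. The members held 168 to 7692 counts per library, and the smallest group had 3 libraries. No paired analysis was possible because the labels give no replicate numbers.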
